A study of Saccharomyces cerevisiae with 12 samples.

Results

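Yeast cells without chromosomal DBP7 carried a plasmid for either catalytically inactive or wild-type Dbp7, and their rRNA 2′-O-methylation was compared by RiboMeth-seq in 6 of the 12 libraries of the series, 3 of Δdbp7 + Dbp7DQGD and 3 of Δdbp7 + Dbp7WT. The 6 libraries were taken by their titles, and no measured value entered that choice. All 6 share the deletion of DBP7, the low-copy plasmid backbone and the endogenous DBP7 promoter, and differ in a glutamate to glutamine substitution in the DExD motif of the plasmid-borne protein. RNA was whole-cell RNA of exponentially growing cultures. The other 6 libraries, 3 of a wild-type strain and 3 of the deletion strain, all with an empty vector (WT + EV and Δdbp7 + EV), enter here through the shared estimate of the spread and as a second pair of groups to set beside the first. Cells with Dbp7DQGD grew more slowly than cells with Dbp7WT in the study, so growth and helicase activity cannot be told apart in these 2 groups. The level of Dbp7 itself was not measured in these data.

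Dbp7 is a DEAD-box RNA helicase of the nucleolus that acts on early precursors of the large ribosomal subunit. Most 2′-O-methyl groups of rRNA are placed at that stage by box C/D small nucleolar ribonucleoproteins, in which a guide snoRNA pairs with the pre-rRNA and the methyltransferase Nop1 modifies the nucleotide it selects. RNA helicases are known to help such guides to bind or leave. In RiboMeth-seq, alkali cuts RNA poorly 3′ of a methylated ribose, so a methylated nucleotide has few read ends relative to its neighbours. The RMS score is 1 minus the ratio of its read ends to the weighted mean of the flanking nucleotides, and runs from 0 (unmethylated) to 1 (every copy methylated).

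The comparison covered 55 methylated sites, 37 in the 25S and 18 in the 18S rRNA. Without a term for the replicate pairs, 6 sites passed the test, all in the 25S rRNA and all with less methylation in Δdbp7 + Dbp7DQGD. Their surroundings in the 25S rRNA (RDN25-1, on chromosome XII) are shown because these nucleotides passed in this fit. Other fits called other sets of sites, as given below. Each window runs 5′ to 3′ over 21 nucleotides as given in the deposited files, with the methylated nucleotide in capitals:
25S C663: accaaggaguCuaacgucuau
25S G867: gaggcucguaGcgguucugac
25S A876: agcgguucugAcgugcaaauc
25S U898: aucgucgaauUuggguauagg
25S A1449: uggugguaguAgcaaauauuc
25S A2220: gucaaagugaAgaaauucaac

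The windows of G867 and A876 overlap, and 4 of the 6 sites lie in the 5′ part of domain II of the 25S rRNA. No 2 of the 6 nucleotides share a guide: snR58 serves C663, snR50 G867, snR72 A876, snR40 U898, U24 A1449 and snR47 A2220. Of these guides, snR40, U24 and snR47 also have other targets among the compared sites.

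C663 had the largest decrease among them. Its scores were 0.776, 0.801 and 0.843 in replicates 1 to 3 of Δdbp7 + Dbp7WT and 0.637, 0.665 and 0.71 in those of Δdbp7 + Dbp7DQGD. The groups did not overlap, and the drop was nearly the same in every pair of same-numbered libraries, with differences of -0.139, -0.135 and -0.133. The mean fell from 0.807 ± 0.0341 (SD, n = 3) to 0.671 ± 0.0371, a difference of -0.136 (SE 0.0353, limma adjusted p = 0.0341), so that the unmethylated share of the 25S rRNA at this site was 19.3% with wild-type and 32.9% with inactive Dbp7.

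U898, which snR40 guides, scored 0.836, 0.877 and 0.83 with Dbp7WT against 0.773, 0.787 and 0.749 with Dbp7DQGD. Again all 3 libraries with the inactive protein lay below all 3 with the active one. The difference was -0.0778 (SE 0.0177, limma adjusted p = 0.0296), and the unmethylated share went from 15.2% to 23%.

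At the other 4 sites over 95% of the rRNA copies were methylated with Dbp7WT, by their mean scores, and the decreases were smaller in absolute terms. G867, the snR50 target, scored 0.942, 0.96 and 0.953 against 0.886, 0.916 and 0.911 (difference -0.0477, SE 0.0122, limma adjusted p = 0.0341). A876, the snR72 target, scored 0.944, 0.965 and 0.945 against 0.898, 0.927 and 0.911 (-0.0394, SE 0.00868, adjusted p = 0.0296). At G867 and A876, which lie 9 nucleotides apart, every library with Dbp7DQGD was lower than every library with Dbp7WT. A1449, a U24 target, scored 0.968, 0.977 and 0.963 against 0.914, 0.944 and 0.928 (-0.0405, SE 0.00801, adjusted p = 0.0296). A2220, in domain IV, scored 0.983, 0.979 and 0.979 against 0.947, 0.936 and 0.947 (-0.0368, SE 0.00886, adjusted p = 0.032). These sites also separated the groups without overlap, as did 15 of all 55 sites, each with Dbp7DQGD below Dbp7WT and 0 the other way.

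On the scale of unmethylated rRNA the order of the 6 sites was another. A2220 had 1.99% unmethylated copies with Dbp7WT and 5.67% with Dbp7DQGD, a ratio of 2.85, and A1449 had 3.08% and 7.13%, a ratio of 2.31. The ratio was 1.99 at G867, 1.81 at A876, 1.7 at C663 and 1.51 at U898. A2220, with the smallest loss in score of the 6, thus had the largest relative gain in unmethylated copies. A2220 had few read ends, 39, 50 and 48 at the nucleotide itself in the Dbp7WT libraries and 38, 74 and 40 in those with Dbp7DQGD, while C663 had 183 to 528 per library. The score difference at A2220 was -0.0248 from 5′ ends alone and -0.0458 from 3′ ends alone.

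Read against all sites, 6 called of 55 is 10.9%. No site passed in the other direction, and 11 sites had an unadjusted p under 0.05. Without the pairs in the model the count changed when 1 library was left out: leaving out replicate 1 or 2 of Δdbp7 + Dbp7WT, or replicate 1 or 3 of Δdbp7 + Dbp7DQGD, called 0, and leaving out either of the other plasmid libraries called 3 (U898, A876 and A1449). The differences themselves stayed negative in these smaller fits, from -0.156 to -0.117 at C663 and from -0.0386 to -0.0333 at A2220. Scores from 5′ read ends alone called 14 sites and those from 3′ read ends alone 0.

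Same-numbered libraries of the 2 plasmid groups deviated together from their group means, so the fit with a replicate block per pair bears on each call. With that block 16 of 55 sites (29.1%) passed, all lower in Δdbp7 + Dbp7DQGD and including the 6 above, whose adjusted p became 0.00092 at C663, 0.00378 at A876, 0.00456 at A1449, 0.00485 at G867, 0.00512 at U898 and 0.0131 at A2220. In the plot of scores by library, 1 pair sat apart from the other 2 in both groups at sites such as C2197, C650 and 18S C1007, while the step within each pair pointed down.

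**Figure D1:**
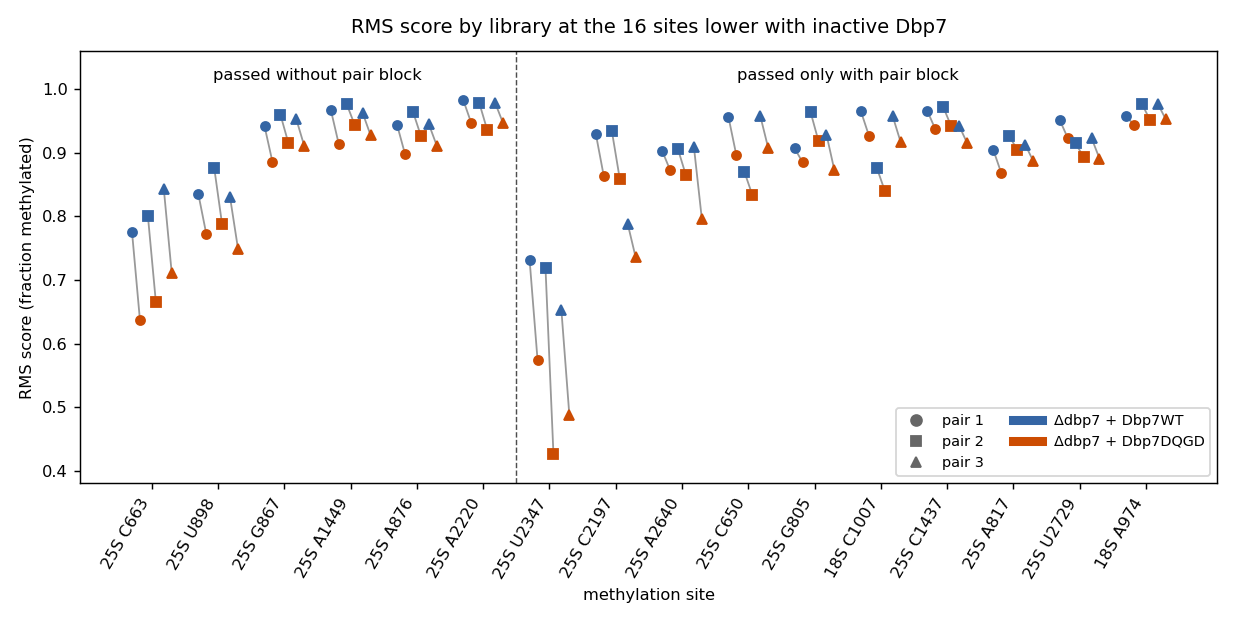
RMS score (vertical axis, fraction methylated) at the 16 sites that passed with the replicate block, 6 of them also without it; blue marks are Δdbp7 + Dbp7WT, orange marks Δdbp7 + Dbp7DQGD, marker shapes are replicates 1 to 3 and grey lines join same-numbered libraries. Every line falls, with a mean difference of -0.205 at 25S U2347 and of -0.0207 at 18S A974. The sites were chosen by the fit on these same pairs, which favours lines of 1 direction. Of all 55 sites, 31 were lower in 3 of 3 pairs.

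Among the 10 sites that passed only with the block, U2347 of the 25S rRNA, guided by snR65, had the largest mean difference of all 55 sites. It scored 0.732, 0.718 and 0.652 with Dbp7WT and 0.574, 0.426 and 0.487 with Dbp7DQGD. The groups did not overlap, but the size of the drop ranged from -0.157 to -0.293 between pairs. The difference was -0.205 (SE 0.0625, adjusted p = 0.0722 without the block and 0.0035 with it, limma), and the unmethylated share reached 50.4% against 29.9%.

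C2197, the snR76 target, showed the opposite pattern of spread. Its scores were 0.93, 0.935 and 0.789 against 0.863, 0.86 and 0.736. The groups overlapped because replicate 3 was low in both, whereas the differences within pairs were -0.0663, -0.0755 and -0.0527 (limma adjusted p = 0.506 without the block and 0.00456 with it). A2640, guided by snR68, scored 0.903, 0.906 and 0.909 against 0.873, 0.864 and 0.795. Here the groups were apart and replicate 3 of Δdbp7 + Dbp7DQGD set much of the mean difference of -0.0616 (limma adjusted p = 0.0793 without and 0.0313 with the block). The blocked call at A2640 was lost on the 6 plasmid libraries alone (adjusted p = 0.101) and without pair 2 (0.0662) or pair 3 (0.0796).

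The remaining 7 of these 10 sites had mean differences of -0.0493 to -0.0207. C650, a U18 target, scored 0.957, 0.871 and 0.959 against 0.896, 0.834 and 0.908 (limma adjusted p = 0.00475 with the block). G805, guided by snR39B, had a mean of 0.933 ± 0.0289 (SD, n = 3) against 0.892 ± 0.0238 (adjusted p = 0.0107 with the block). C1437, another U24 target, had 0.961 ± 0.0157 against 0.932 ± 0.0141 (adjusted p = 0.0135 with the block). These 3 sites are in the 25S rRNA, as are A817, an snR60 target (-0.0276, adjusted p = 0.0239 with the block), and U2729, an snR51 target (-0.0273, adjusted p = 0.0269). The other pair of sites lies in the central domain of the 18S rRNA: C1007, guided by snR79, scored 0.965, 0.876 and 0.958 against 0.927, 0.84 and 0.917 (adjusted p = 0.00871 with the block), and A974, guided by snR54, had a mean of 0.971 ± 0.0115 against 0.95 ± 0.00455 (adjusted p = 0.0375 with the block). Without the block the adjusted p of these 7 sites was 0.147 to 0.536. When 1 pair at a time was left out of the blocked fit, 8 to 11 sites still passed, and C663, U898, G867, A876, A1449, U2347, C2197 and C650 passed each time. A2220 passed in none of these smaller fits (limma adjusted p = 0.0553 to 0.0738).

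Lower scores were more frequent than higher ones beyond the sites that passed. Of the 55 sites, 42 had a lower and 13 a higher mean in Δdbp7 + Dbp7DQGD, and 31 were lower in 3 of 3 pairs against 5 that were higher in 3 of 3. The median difference over all sites was -0.014. At 18S G1572, guided by snR57, scores were 0.813, 0.937 and 0.825 against 0.711, 0.876 and 0.768, a mean difference of -0.0735 whose call depended on the fit (limma adjusted p = 0.907 without the block, 0.0745 with the block over 12 libraries and 0.0175 with the block on the 6 plasmid libraries alone).

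**Figure D2:**
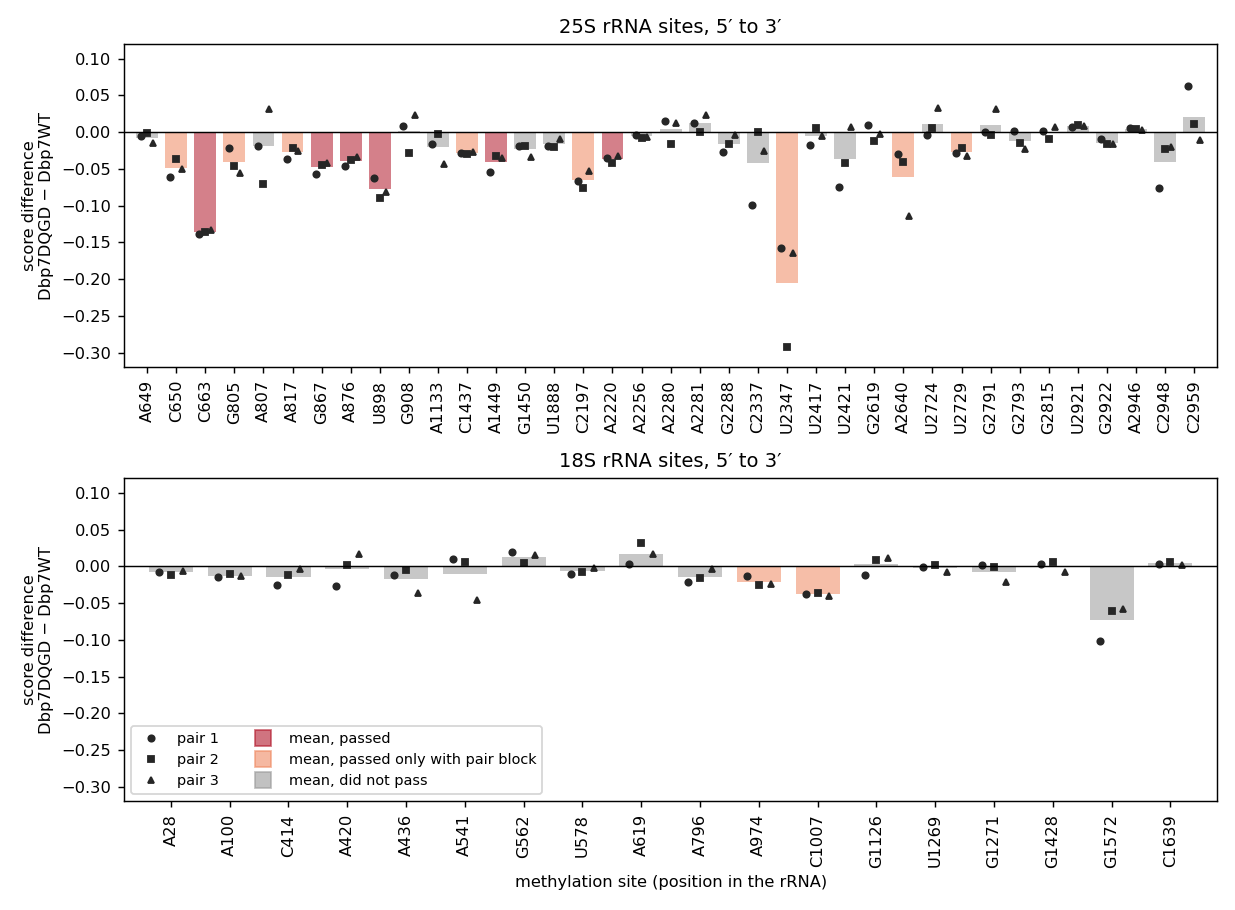
Difference in RMS score between Δdbp7 + Dbp7DQGD and Δdbp7 + Dbp7WT (vertical axis) at each site of the 25S (upper panel) and 18S rRNA (lower panel), ordered 5′ to 3′; bars are means over 3 pairs, points are single pairs, and colours give the test result. Of the 37 25S sites 29 lie below 0, and of the 18 18S sites 13.

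By rRNA, 29 of 37 25S sites had a lower mean, with a median difference of -0.0203, and 14 passed with the block. In the 18S rRNA 13 of 18 sites were lower, with a median of -0.00774, and 2 passed. The mean score over all 25S sites was lower by 0.029 in Δdbp7 + Dbp7DQGD and that over all 18S sites by 0.0106. Leaving out replicate 3 of Δdbp7 + Dbp7DQGD alone moved the 18S value to -0.000772. That step breaks a pair, because the same-numbered Dbp7WT library stays in the other mean. No test was run on these averages.

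Along the 25S rRNA the decreases were unevenly spread. In the 5′ part of domain II, from A649 to G908, 9 of 10 sites had a lower mean, 7 passed with the block (C650, C663, G805, A817, G867, A876 and U898) and the median difference was -0.0403. In the segment with the end of domain II and domain III, A1133 to G1450, all 4 sites were lower in 3 of 3 pairs, with a median of -0.0261. In domain IV, U1888 to U2347, 7 of 9 sites were lower and 3 passed with the block, at a median of -0.0162. The 5′ part of domain V, U2417 to U2729, had 5 of 6 lower sites and a median of -0.0162. Around the peptidyl transferase centre, G2791 to C2959, 4 of 8 sites were lower and 4 higher, the median was 0.00163 and 0 passed with or without the block. The segments were set by sites already known to differ in earlier results of these data, and no test compared them.

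Sites of the peptidyl transferase centre include G2922, which the protein methyltransferase Spb1 modifies without a guide. It scored 0.926, 0.935 and 0.923 with Dbp7WT and 0.916, 0.919 and 0.906 with Dbp7DQGD. The neighbouring U2921, an snR52 target, scored 0.972, 0.98 and 0.961 against 0.979, 0.989 and 0.969. The step was downward in 3 of 3 pairs at G2922 and upward in 3 of 3 at U2921, the groups did not overlap at G2922, and neither site passed (limma adjusted p = 0.595 and 0.395 with the block). C2948, guided by snR69 and among the sites named in the study, scored 0.743, 0.876 and 0.836 against 0.667, 0.853 and 0.815, lower in 3 of 3 pairs (-0.04, limma adjusted p = 0.907 without and 0.0745 with the block). Without replicate 1 of Δdbp7 + Dbp7DQGD the mean difference at C2948 was 0.0156, and without pair 1 it was -0.0219.

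The sites with the largest upward differences were C2959 of the 25S rRNA (0.0212, 95% confidence interval -0.0858 to 0.128), A619 (0.0174, -0.0477 to 0.0825) and G562 (0.0131, -0.0837 to 0.11) of the 18S rRNA. C2959, the snR73 target, scored 0.804, 0.953 and 0.943 against 0.867, 0.963 and 0.933, so its upward mean rests mostly on pair 1, without which it was 0.000196. A619, an snR47 target, and G562, for which no guide is listed here, were higher in 3 of 3 pairs. These intervals are from the fit without the block, in which limma's adjusted p was 0.907 or more at all 3. With the block the SE fell from 0.043 to 0.0065 at G562, from 0.0475 to 0.0133 at C2959 and from 0.0289 to 0.0208 at A619, and the adjusted p was 0.177, 0.3 and 0.594.

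Several guides direct methylation at more than 1 of the 55 sites, which allows sites of the same snoRNA to be set side by side. There were 11 such guides with 23 sites. For snR40, U898 fell while its 18S target G1271 scored 0.989, 0.959 and 0.967 against 0.991, 0.958 and 0.945 (-0.00712, SE 0.0203, limma adjusted p = 0.954). For snR47, A2220 of the 25S rRNA fell by 0.0368 and A619 of the 18S rRNA had the upward difference given above. For snR60, the difference was -0.0276 at A817, which passed with the block, and 0.00101 at G908. These are contrasts between sites of the same guide that lie in different parts of the rRNA, and the differences between the sites were not tested.

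Guides with neighbouring targets gave a mixed picture. All 3 sites of U24 were lower in 3 of 3 pairs: the difference was -0.0287 at C1437, -0.0405 at A1449 and -0.0236 at G1450, of which G1450 passed only with the block on the 6 plasmid libraries alone (limma adjusted p = 0.041, against 0.0745 with the block over 12 libraries and 0.536 without it). Of the adjacent U18 targets, C650 fell by 0.0493 and A649 differed by -0.0074, having been 0.988 ± 0.00146 methylated (SD, n = 3) with Dbp7WT. Neighbouring methylated nucleotides enter each other's flanking mean, which lowers that mean. Of the 23 sites of guides with several targets 7 passed with the block, and of the 30 sites of guides with a single target 9 passed.

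The 12 sites with a Dbp7WT mean under 0.9 had a median difference of -0.0407, with 10 of them lower, against -0.0121 and 32 of 43 among the rest. 18S A420 and 25S A807 are among the 12 only through a low replicate 3 (0.726 and 0.573 with Dbp7WT). The authors' deposited group means lie above 0.9 at both. With the block 4 of the 12 and 12 of the 43 passed. The grouping uses the same Dbp7WT scores as the differences and was not tested. At 25S G2395, a nucleotide without known methylation, the score was 0.0886, 0.231 and 0.163 with Dbp7WT and 0.0938, 0.21 and 0.0827 with Dbp7DQGD. In WT + EV it was 0.003, 0.214 and 0, and in Δdbp7 + EV 0.0472, 0.241 and 0. These values are from 1 nucleotide and give no background level for other positions.

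Whether loss of the protein and loss of its activity touch the same sites can be read from the empty-vector libraries, which share no library with the plasmid groups. All 6 sites that passed without the block, and 15 of the 16 that passed with it, were also lower in 3 of 3 pairs of Δdbp7 + EV against WT + EV, the exception being 18S A974. Over all 55 sites 22 were lower in 3 of 3 of those pairs, and over the 37 25S sites 20. The spread of the empty-vector libraries entered the calls, so the counts for sites that passed are not independent of the empty-vector scores. Over all 55 sites 44 had mean differences of the same sign in both sets, with a Pearson r of 0.741 over sites, given as a description because sites of a library share depth and base composition. At U2347 the empty-vector scores were 0.679, 0.783 and 0.607 without and 0.447, 0.59 and 0.377 with the deletion, and at C663 0.829, 0.867 and 0.795 against 0.709, 0.81 and 0.679. The difference between the plasmid and the empty-vector effect was 0.0136 (SE 0.0883) at U2347, -0.0384 (SE 0.0499) at C663 and 0.0414 (SE 0.025) at U898. Limma's adjusted p was 0.998 at each without the block, and 0.909, 0.506 and 0.506 with it. Without the block no site passed this test (0 of 55 with limma and 0 with edgeR, each with 2 at an unadjusted p below 0.05). The standard errors given are from that fit, which leaves out the pairs, and they allow differences as large as many of the effects.

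**Figure D3:**
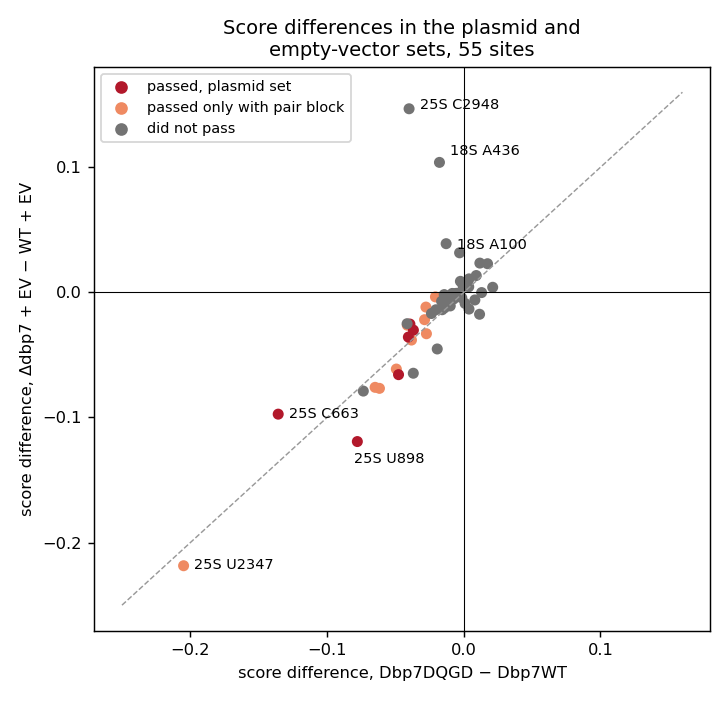
Mean difference in RMS score in the empty-vector libraries (vertical axis, Δdbp7 + EV minus WT + EV) against that in the plasmid libraries (horizontal axis, Dbp7DQGD minus Dbp7WT), 1 point per site for 55 sites, with the line of equal values dashed. U2347 and C663 lie far down on both axes, while C2948 and 18S A436 lie above 0 on the vertical axis and below 0 on the horizontal axis.

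C2948 and 18S A436 departed from the common pattern. At A436, an snR87 target, the empty-vector score went from 0.848, 0.861 and 0.849 in WT + EV up to 0.949, 0.966 and 0.955 in Δdbp7 + EV. In the plasmid set A436 scored 0.957, 0.885 and 0.877 against 0.945, 0.88 and 0.841, lower in 3 of 3 pairs. At C2948 the empty-vector scores rose from 0.687, 0.724 and 0.706 to 0.807, 0.871 and 0.879. The difference between the effects was -0.122 (SE 0.0377) at A436 and -0.187 (SE 0.0683) at C2948, with limma adjusted p = 0.552 and 0.621 without the block and 0.000528 and 0.00123 with it. These were the 2 sites that passed with the block.

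A scan of the whole 18S and 25S rRNAs asked whether read ends changed at nucleotides outside the list. It compared read ends, relative to the flanking mean, at 5172 nucleotides with edgeR, and 0 passed (0%), with 21 at an unadjusted p under 0.05. Of these 21, 10 were listed sites, and the 7 nucleotides with the smallest p were all listed sites, in the order A2220, A1449, G867, A876, U898, C663 and U2347 of the 25S rRNA. With the replicate block 278 nucleotides had an unadjusted p under 0.05 and again 0 passed. Unchanged nucleotides in a calibrated test would give a share of 0.05 under that threshold. The fit without the block lay far below that share, and was thus conservative, while the blocked fit lay near it. The 0 calls therefore do not show that nucleotides outside the list were unchanged. DESeq2 called 1, A2220 (adjusted p = 0.0496).

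**Figure D4:**
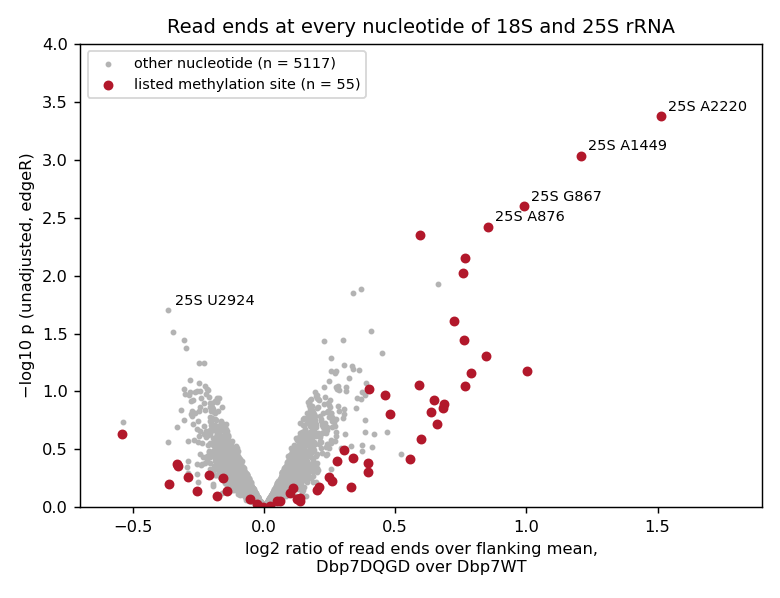
Unadjusted p of edgeR's test on a −log10 scale (vertical axis) against the log2 ratio of read ends over the flanking mean, Dbp7DQGD over Dbp7WT (horizontal axis), for 5117 nucleotides outside the list (grey) and the 55 listed sites (red). The 7 highest points are red and lie to the right, where Δdbp7 + Dbp7DQGD had more read ends.

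Outside the list the smallest p among nucleotides with more ends was at 25S G24, where read ends over the flanking mean were 0.462, 0.47 and 0.446 with Dbp7WT and 0.741, 1 and 0.415 with Dbp7DQGD. The groups overlapped there. At 25S U1056 the ratios were 0.836, 0.804 and 0.863 against 1.17, 0.986 and 1.08. At 25S A2721 they were 0.592, 0.605 and 0.632 against 0.712, 0.775 and 0.827. Among nucleotides with fewer ends 25S U2924 came first, with 1.55, 1.52 and 1.68 against 1.25, 1.19 and 1.24. The next in order were 25S G1655 and 25S A619 with more ends, and 18S U1012, 25S C2925, 25S G2057 and 18S A1147 with fewer. U2924 and C2925 lie just 3′ of the methylated pair U2921 and G2922. None of these nucleotides passed, with an edgeR adjusted p near 1 without the block and of 0.248 (U1056) or more with it.

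The read ends also count the RNAs of the library. The files list 11 RNAs, and a library's ends over them totalled 13122842 to 16854403 with Dbp7WT and 5580519 to 10361153 with Dbp7DQGD. The 25S rRNA made up 64.3%, 63.1% and 61.9% of ends in replicates 1 to 3 of Δdbp7 + Dbp7WT and 52.4%, 50.9% and 48.4% in those of Δdbp7 + Dbp7DQGD. The 18S rRNA made up 29.7%, 28.8% and 29.6% against 35%, 35.4% and 35.9%. As shares of the total, the 25S rRNA was thus lower and the 18S rRNA higher, without overlap, although TMM and DESeq2 scaling turn the direction of the 18S rRNA. The total holds only the listed RNAs, so a fall in an abundant one raises the shares of the others. The study scaled its counts by transcript length and mapped reads. It reports less 18S as well as less 25S rRNA with Dbp7DQGD than in WT + EV, which is another control.

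Per 18S end there were 2.17, 2.19 and 2.09 25S ends with Dbp7WT and 1.5, 1.44 and 1.35 with Dbp7DQGD. The ratio fell to 0.664 times its level, a change of -0.59 (SE 0.0552) on the log2 scale with 18S ends as library size (edgeR adjusted p = 6.56e-06). This ratio does not depend on how libraries are scaled. The 5.8S rRNA, which is cut from the same precursor as the 25S rRNA and sits in the same subunit, moved the other way: it took 5.98%, 8.04% and 8.36% of ends against 12.3%, 13.3% and 15.3%, and its ends per 18S end were 1.51 times as many (edgeR adjusted p = 0.0312). Its share was higher in every pair, a direction that DESeq2 scaling turns.

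**Figure D5:**
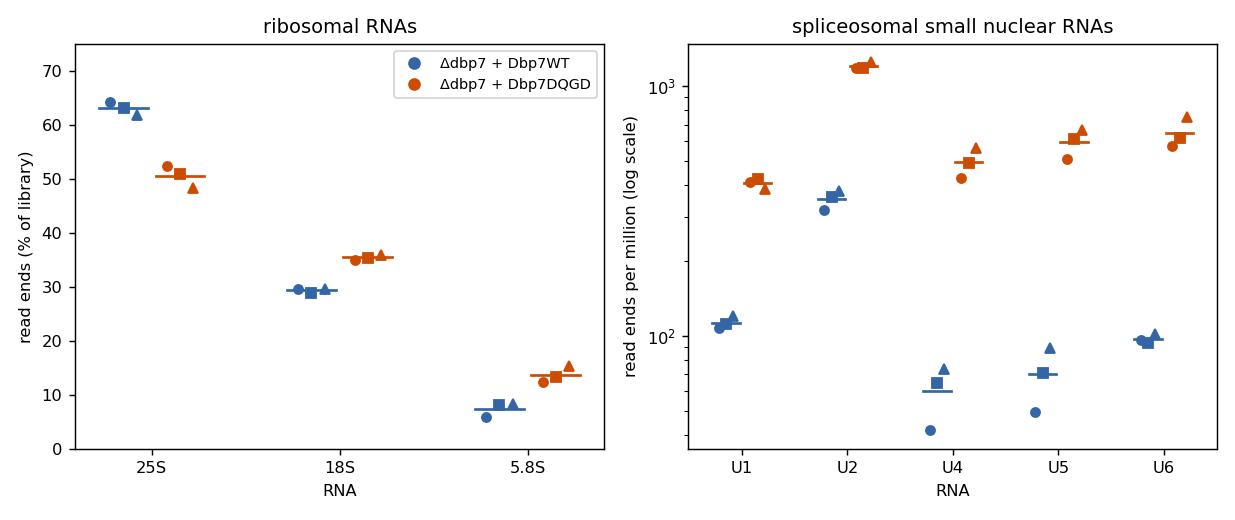
Read ends by RNA and library, relative to the library's ends over the listed RNAs. They are given as percent for rRNAs (left) and as ends per 1000000 (log scale) for small nuclear RNAs (right). Blue is Δdbp7 + Dbp7WT, orange Δdbp7 + Dbp7DQGD, marker shapes are replicates 1 to 3 and horizontal lines are means. The groups do not overlap for any of the 8 RNAs, and on this scale only 25S lies lower with Dbp7DQGD; TMM and DESeq2 scaling turn 18S, and DESeq2 also 5.8S rRNA.

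The spliceosomal small nuclear RNAs, which serve pre-mRNA splicing, gave more ends in every Dbp7DQGD library. U1 had 108, 111 and 120 ends per 1000000 against 413, 423 and 385, and U2 had 319, 359 and 378 against 1178, 1179 and 1243. None of the groups overlapped. U6, the only one made by RNA polymerase III, had 96.1, 93.7 and 101 against 577, 618.9 and 751. U4 had 41.8, 64.9 and 73.5 against 428, 493 and 564, and U5 had 49.6, 71.1 and 89.3 against 510, 612 and 668. Per 18S end the ratio of Dbp7DQGD to Dbp7WT was 2.99 for U1, 2.82 for U2, 6.82 for U4, 7.05 for U5 and 5.54 for U6 (edgeR adjusted p from 2.77e-08 to 9.76e-06). The ratios of U4, U5 and U6 were larger than those of U1 and U2, a difference that was not tested. With DESeq2 size factors U1 and U2 no longer passed (log2 change 0.11 and 0.03).

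Over the 11 RNAs 9 passed with the total as library size (81.8%), 8 higher and 1, the 25S rRNA, lower. One of the 9, U3a, rests on 4 read ends in all, 0 in every Dbp7WT library and 0, 2 and 2 with Dbp7DQGD, and has no usable level. U3b had 2 to 4 ends per library and U14 none (0), so the snoRNAs of the files cannot be compared. The split depended on the scaling, because 2 rRNAs make up most of each library: it was 6 higher and 2 lower with TMM, 3 and 3 with DESeq2 size factors and 6 and 1 per 18S end. With TMM and with DESeq2 the 18S rRNA counted as lower (log2 change -0.54 and -1.48, against 0.27 with the total), and with DESeq2 the 5.8S rRNA as well (-0.86 against 0.87). The data hold no measure of RNA per cell, so less 25S rRNA and more of the other RNAs per cell cannot be told apart.

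Within each rRNA the read ends were spread over its segments in nearly the same shares in both groups. Domain I held 19.9% ± 1.16 (SD, n = 3) of the 25S ends with Dbp7WT and 19.9% ± 1.43 with Dbp7DQGD, the 5′ part of domain II 12.1% ± 0.465 and 12% ± 0.297, and the peptidyl transferase centre 6.45% ± 0.137 and 6.34% ± 0.286. Over the 10 segments of both rRNAs the ratio of the group means lay between 0.978 and 1.03.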

How the data were processed

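RiboMeth-seq libraries of 12 yeast samples were grouped by title (3 per group). The members and lists described here were chosen with earlier results of these data known. Per the labels, RNA was cleaved by alkali, a short size fraction was ligated to adapters and sequenced on an Ion Proton. The submitters' processing notes name cutadapt 2.0 and Bowtie2 2.3.4.1. The build is not given in the sources used here, so positions are those within each rRNA. The authors deposited, for each library, raw counts of read ends (5′, 3′ and summed) per nucleotide of 11 RNAs, and the RMS score, a fraction from 0 to 1 (headed as a percentage), from 6 flanking nucleotides on each side with weights 1.0 to 0.5. Recomputed scores matched the deposited ones to 5e-10. A deposited overview holds mean scores per group. It differs from the library means by over 0.001 at 3 of 55 sites in the plasmid groups, 18S A420, 18S A541 and 25S A807. Its values enter no test or difference given here. A further 24 per-sample columns with other scores were not used.

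Scores were compared with limma 3.58.1 (R 4.3.3; lmFit, contrasts.fit, eBayes) over all 12 libraries, with 1 mean per group, two-sided, and Benjamini-Hochberg adjustment over 55 sites at 0.05. The difference between the plasmid and empty-vector effects was a contrast of the same fit. The scan used the quasi-likelihood test of edgeR 4.0.16 on end counts with the flanking mean as offset, at 5172 of 5196 nucleotides whose flanking mean reached 50 in each library. Read ends per RNA were tested with edgeR, with the library total or the 18S ends as library size. DESeq2 1.42.0 was an alternative. Scripts were tested on simulated data. Named sites were those that passed with or without the block, the 6 named in the study, 18S G1271, 25S C2959, 25S G2395, the 3 largest upward differences, the 3 largest differences between the effects, and up to 5 nucleotides of the scan per direction; further sites were named after their values were seen.

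Replicate numbers come from the titles. Deviations from the group means over the 55 sites correlated at 0.839 to 0.93 between same-numbered libraries of the plasmid groups and at -0.722 to 0.0861 between others, so the numbers were taken as pairs and a replicate block was fitted for each pair. Nothing states what the pairs share. Flanking means at the sites had medians of 2096 to 2831 per library with Dbp7WT and 802 to 1622 with Dbp7DQGD. The lowest site had 7 read ends. Scores of the deeper group rest on more reads, but their SD between libraries was not always the smaller. It was 0.083 with Dbp7WT and 0.0725 with Dbp7DQGD at C2197, and 0.00289 and 0.0426 at A2640. PCR copies are not independent molecules, and no counting interval was used. The p-values measure the spread between these libraries, described by the series as biological replicates.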

Additional observations from a re-analysis of the deposited data

Results flagged for a closer look

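At 3 sites the plasmid and empty-vector sets moved in opposite directions in all 3 pairs of each set. At 18S A436 the difference between the effects was -0.1217, at 25S C2948 -0.1868 and at 18S A100, an snR51 target, -0.0518. At all 3 the score was lower with Dbp7DQGD than with Dbp7WT in each pair and higher in Δdbp7 + EV than in WT + EV in each pair. Without the replicate block none passed limma's test of the difference (adjusted p = 0.552, 0.621 and 0.998). With it A436 and C2948 passed (0.000528 and 0.00123) and A100 did not (0.091). At these sites the 2 controls also differ in level: WT + EV had a mean of 0.853 at A436, 0.706 at C2948 and 0.784 at A100, against 0.906, 0.818 and 0.839 in Δdbp7 + Dbp7WT. The part that these control levels play in the opposite directions was not tested.

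Among the RNAs the difference between the effects passed for U1, at 0.5497 on the log2 scale with the total as library size (edgeR adjusted p = 0.0288), and also per 18S end (0.43, adjusted p = 0.0166). U1 thus rose by more between the plasmid groups than between the empty-vector groups. With the total as library size the difference was also positive for U5 (0.476), U2 (0.351), U4 (0.342) and U6 (0.0499). None of these passed (edgeR adjusted p of 0.0677 or more), and the larger rise is not shown to be particular to U1.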

How the results depend on the processing

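The count of lower sites without a block was 6. It was 16 with a replicate block per pair, 10 with the number as block, 17 with the replicate block on the 6 plasmid libraries alone (with G1450 and 18S G1572, without A2640) and 0 on these without it; 2 on the log-odds scale, 14 from 5′ ends, 0 from 3′ ends (5 at an unadjusted p under 0.05), 2 with edgeR and 7 with DESeq2 on end counts (all 6 among the 7), and 0 to 3 leaving out each library. From 3′ ends the 6 sites kept their sign. Chosen after seeing the data, leaving out pair 1 from the blocked fit gave 11. For the difference between the plasmid and empty-vector effects, 0 sites passed, against 2 with the replicate block and 3 from 5′ ends. The scan gave 0, also with the replicate block, and 1 with DESeq2. Mean scores kept their sign over single left-out libraries, from -0.0345 to -0.0223 for 25S and from -0.02 to -0.000772 for 18S. Each of these steps breaks a pair, so the ranges include the deviation that the pair shares. The replicate block leaves the means as they are by construction. The count of RNAs stayed at 9 with the replicate block and was 6 to 9 over all alternatives. The log2 change of 18S turned to -0.54 (TMM) and -1.48 (DESeq2), and that of 5.8S to -0.86 (DESeq2). TMM moved the median RNA by -0.8 and DESeq2 by -1.74.

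The library with the fewest read ends at a site had 7, so differences at nearly fully methylated sites rest on few reads. The libraries with Dbp7DQGD are the shallower ones, and the part of depth was not tested.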
